A study of Mus musculus with 84 samples.

Results

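The angiopoietin and Tie pathway was examined through 6 genes, Tek, Tie1, Ptprb, Angpt1, Angpt2 and Foxo1, taken by symbol from the 20308 genes measured in 84 single cells. The cells came from mouse embryos at E11.5 (E for embryonic day), from the aorta-gonad-mesonephros or AGM. This region of the trunk holds the dorsal aorta, the developing gonads and the early kidney. The cells had been sorted as CD31+CD144+CD41-CD45-, a gate for endothelial cells without platelet or blood surface proteins, and each sample is 1 cell. All cells share this gate, day and tissue, and the labels give no strain, genotype or treatment. The labels tie no cell to an embryo or litter, and the study therefore holds 1 group with 1 sample made of 84 cells. No test across cells was therefore made, and every difference below describes these cells only.

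Tek encodes Tie2, the receptor tyrosine kinase of endothelium that binds the angiopoietins. Angpt1, made mainly by cells around vessels and by platelets, activates Tie2 and steadies the vessel wall, whereas Angpt2, made and stored by endothelial cells themselves, can block or activate the receptor depending on context. Tie1 binds no angiopoietin with high affinity and acts through complexes with Tie2. Ptprb encodes VE-PTP, the endothelial phosphatase that removes phosphate from Tie2 and guards VE-cadherin junctions. Active Tie2 signals through PI3K and AKT, which send the transcription factor Foxo1 out of the nucleus, and Angpt2 is among the genes Foxo1 is known to activate.

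Values are TPM, which scales transcripts for gene length and to a fixed total, so levels of different genes in a cell can be compared. A gene was called detected at TPM 1 or more. TPM keeps no sequencing depth, and a 0 can be a transcript missed during capture. Intervals beside shares are exact Clopper-Pearson 95% intervals and hold only the error of counting cells. A median of 6978 genes was detected per cell, with a range from 3334 to 10073, and the 84 library barcodes were all distinct. The sorted surface proteins were matched by their transcripts in most cells: Pecam1 (CD31) was detected in 80 cells, Cdh5 (CD144) in 82, Ptprc (CD45) in 0 and Itga2b (CD41) in 7. Of 17 pan-endothelial marker genes, 78 cells held 10 or more at TPM 10, and 6 cells held 7 or fewer. In 34 cells, 3 or more of 11 mesenchyme markers (collagens and other connective tissue genes such as Col1a2, Pdgfra and Twist1) also reached TPM 10. The 34 cells are 1 side of a cut on a count without a gap, since 4 cells held 2 markers and 6 held 3. Cell 41 stands apart by its platelet transcripts. Detection of each member was also computed without cell 41, and detection, levels and correlations without the 34 cells. The number of cells with 3 or more markers at TPM 10 was 5 for mural cells, 4 for neural cells and 3 for megakaryocytes or platelets. It was 2 for epithelial or mesonephric cells, 1 for erythroid cells, and 0 for macrophages and for blood progenitors. Cells are named by the number in their label.

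Both receptor genes lie on chromosome 4 of the mouse, Tek at 94739086 to 94874976 on the plus strand and Tie1 at 118471191 to 118489849 on the minus strand (RefSeq, GRCm38.p6, the assembly that mm10 names). Sequence upstream of each is shown because both genes were detected together in 63 cells, and because the ETS factors that act on many endothelial promoters bind a short core. RefSeq's promoter table held 3 of the 6 members, Tek, Tie1 and Foxo1. Only bases outside every annotated transcript are printed, 5′ to 3′ on the strand of the gene, with the ETS core GGAAG, read on either strand, in capitals. The Tek stretch ends just before the gene's first annotated base. The Tie1 stretch is the far end of its window, since alternative transcripts reach into the rest, and it shows 2 of the matches counted there.
Tek, chr4:94739039-94739085, plus strand: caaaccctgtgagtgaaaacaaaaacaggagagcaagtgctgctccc
Tie1, chr4:118490062-118490099, minus strand: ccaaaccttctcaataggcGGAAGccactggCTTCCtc
In the 250 bases before the start used in that table, GGAAG was found 6 times for Tie1, 0 times for Tek and 1 time for Foxo1, both strands counted. Of the 250 bases, 47 for Tek, 38 for Tie1 and 249 for Foxo1 lie outside annotated transcripts of the gene. The counts therefore include transcribed bases and do not compare upstream sequence alone. Of 32851 mouse promoter windows of the same length, 64.1% held it at least 1 time and 0.344% at least 6 times. AGATAA (the GATA factor motif, in 9.99% of windows) and GTAAACA (the FOXO motif, in 3.17%) had 0 matches in all 3 windows. A match is a string of letters and not a measured binding site.

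Of the 6 members, 5 were detected in 42 or more of the 84 cells, against 34.6% of all genes in the table. Angpt1 was the exception. The receptors, the phosphatase and Foxo1 were each found in over 80% of cells, Angpt2 in fewer, and Angpt1 in 8 cells.

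Tek was detected in 71 cells (84.5%, interval 74.99 to 91.5%) and had the highest median of the members. Its TPM ran from 0 to 683 with a median of 56.9 and quartiles of 5.14 and 134.5. Cells 5 (683 TPM), 60 (641 TPM) and 32 (620 TPM) stood above all others, the next being cell 58 at 345 TPM. Tek was at 100 TPM or more in 29 cells, between 1 and 10 TPM in 12, and below 1 TPM in 13, of which 1 was at 0. Its mean ranked above that of 91.3% of genes. Even so, 11 of the 17 pan-endothelial genes had a higher median than Tek, among them Emcn (925 TPM), Kdr (159 TPM) and Pecam1 (152 TPM).

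Tie1 was detected in 69 cells (82.1%, interval 72.3 to 89.6%), at a lower level. Its TPM ran from 0 to 431 with a median of 18.2 and quartiles of 5.38 and 40.2. Cell 45 was highest at 431 TPM, followed by cell 60 at 223 TPM and cell 70 at 148 TPM, and only 5 cells reached 100 TPM. Within the same cell Tek exceeded Tie1 in 63 of 84 cells and fell below it in 20, with a median difference of 1.39 in log2(TPM + 1), Tek minus Tie1. Single cells covered the whole span between the receptors, from -5.56 in favour of Tie1 to 7.05 in favour of Tek.

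Ptprb, on chromosome 10 at 116275502 to 116389538 (plus strand), was detected in 71 cells (84.5%). Its TPM ran from 0 to 199 with a median of 20.8 and quartiles of 3.89 and 41.9. The highest value was in cell 70, also among the 3 highest for Tie1, with Tek at only 22.5 TPM there. Tek exceeded its phosphatase in 65 cells and was below it in 18, whereas Tie1 exceeded Ptprb in 33 cells and was below it in 49. The order of medians was Tek, Foxo1, Ptprb, Tie1, Angpt2, Angpt1. Foxo1, Ptprb and Tie1 are neighbours in that order whose quartile ranges overlap almost fully.

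The ligands differed from each other in how many cells held them. Angpt2, on chromosome 8 at 18690263 to 18741562 (minus strand), was detected in 56 cells (66.7%, interval 55.5 to 76.6%). Its TPM ran from 0.23 to 122 with a median of 5.96 and quartiles of 0.81 and 24.5, so no cell was at 0, but 28 cells lay below 1 TPM. Cells 84 (122 TPM), 1 (118 TPM) and 73 (101.3 TPM) were highest. Cells 84 and 1 also held Tek at 70.4 and 113 TPM, while cell 73 held 0.17 TPM. Each of the 17 pan-endothelial genes was found in more cells than Angpt2. Angpt2 lies within the span of Mcph1, a gene on the opposite strand, and the sources used here do not state whether counting used strand, so reads of the pair may not be told apart. Mcph1 was detected in 45 cells with a median of 1.54 TPM, and its rank correlation with Angpt2 was 0.17. Angpt2 also varied with the number of genes detected per cell (Spearman rho 0.39), more than any other member (0.06 to 0.24), and the part of that in its values was not tested.

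**Figure D1:**
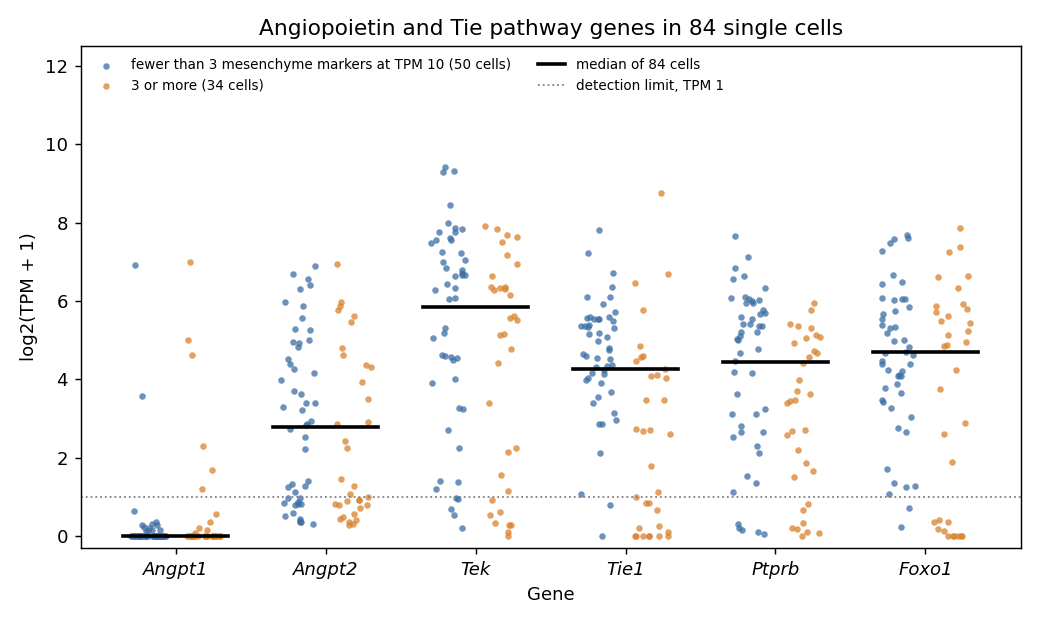
Level of each of the 6 genes in each of the 84 cells, as log2(TPM + 1) on the vertical axis, with 1 point per cell. Colour gives the number of mesenchyme markers, black lines the median of all cells and the dotted line TPM 1. Tek has the highest median (56.9 TPM), and Angpt1 rises above the line in 8 cells.

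Angpt1, on chromosome 15 at 42424667 to 42676977 (minus strand), was detected in 8 cells (9.52%, interval 4.20 to 17.9%) and was at 0 in 60. Its values were 126 TPM in cell 11, 120 in cell 12, 30.95 in cell 68, 23.7 in cell 69, 10.9 in cell 41, 3.94 in cell 81, 2.23 in cell 34 and 1.31 in cell 9. Cells 11 and 12 thus stand apart from the other 6. Mesenchyme markers numbered 3 or more in 6 of the 8 cells, against 34 of all 84, and their summed level in the 8 lay between 0.28 TPM (cell 12) and 502 TPM (cell 34). Prox1, the transcription factor of lymphatic endothelial fate, reached TPM 10 in 6 of the 8, against 36 of all 84, and 5 cells had both. Cell 12 held Angpt1 at 120 TPM, 0 mesenchyme markers, 12 pan-endothelial markers and Prox1 at 70.8 TPM. Its Tek was 0.93 TPM and its Tie1 41.03 TPM. Cell 41 held all 6 megakaryocyte or platelet markers at TPM 10, led by Pf4 (35696 TPM) and Ppbp (10388 TPM), with Itga2b at 686 TPM despite the sort against CD41. Without cell 41, Angpt1 was detected in 8.43% of 83 cells. Without cells holding 3 or more mesenchyme markers the share was 4.0%, from cells 12 and 41, and without cell 41 as well it was 2.04% of 49 cells, from cell 12. Mural markers at TPM 10 numbered 3 in cell 11 and 2 each in cells 9, 34 and 68. They numbered 1 each in cells 41 and 81 and 0 in cells 12 and 69, against a median of 0 over all 84 cells. The part of mesenchyme, mural or platelet RNA in the Angpt1 signal was not tested.

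Angpt2 was present without Angpt1 in 51 cells (60.7%, interval 49.5 to 71.2%), Angpt1 without Angpt2 in 3, both in 5 and neither in 25. Independence gives 5.33 cells with both. At TPM 10 the ligands shared 0 cells, where independence gives 1.96. Counts this small do not show that the ligands avoid each other. Of the other genes listed as ligands, Angpt4, the remaining angiopoietin, was detected in 0 of 84 cells, and 3 counts of 84 set a limit of 3.57% on cells in which this assay would detect it. That limit does not hold for cells that express the gene below capture. Svep1, an extracellular matrix protein known to bind Tie1, was detected in 7 cells with a highest value of 65.7 TPM.

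Foxo1, on chromosome 3 at 52268337 to 52350109 (plus strand), was detected in 71 cells (84.5%). Its TPM ran from 0 to 231 with a median of 24.9 and quartiles of 5.68 and 55.2. The highest value came from cell 65, which held 0 of 17 pan-endothelial markers, 4 mesenchyme markers and neither receptor at TPM 1 or more. Foxo1 was the FOXO gene of these cells: Foxo4 was detected in 6 cells, Foxo3 in 4 and Foxo6 in 1, and none of those had a median above 0.

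Receptors and phosphatase were found together in most cells. Tek, Tie1 and Ptprb were all detected in 59 of 84 cells (70.2%, interval 59.3 to 79.7%), exactly 2 of them in 14 cells, 1 in 6 cells and 0 in 5. Angpt2 was added to the 3 in 42 cells (50%), and Foxo1 as well in 37 (44.05%). All 6 members were detected in 2 cells. At TPM 10, Tek, Tie1 and Ptprb coincided in 34 cells.

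Because each of these genes is in most cells, joint detection could hardly differ from what independent detection gives. Tek and Tie1 were both detected in 63 cells, where independence gives 58.3 and the possible range is 56 to 69. Tek with Ptprb gave 65 cells against 60.01, and Tie1 with Ptprb 63 against 58.3, each a ratio of 1.08. Over all 15 pairs the ratio lay between 0.89 and 1.18. At TPM 10 it was 1.14 for Tek with Tie1, 1.22 for Tek with Ptprb and 1.13 for Tie1 with Ptprb. Higher ratios at TPM 10 were not particular to these pairs: Tie1 with Foxo1 went from 1.08 to 1.13, Tek with Angpt2 from 1.01 to 1.12 and Angpt1 with Foxo1, which share 8 cells, from 1.18 to 1.45. Tek and Angpt2 shared 48 cells against 47.3 by independence, so a cell with the receptor held its endothelial ligand about as often as any other cell.

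Cells with a receptor below TPM 1 were described by their markers. Below TPM 1 is not absence, since Tek was at 0 in 1 of the 84 cells and Tie1 in 8. Tek without Tie1 occurred in 8 cells (13, 21, 24, 25, 29, 38, 54 and 56), with Tek up to 239 TPM in cell 24 and 205 TPM in cell 56. Of these, 7 held 3 or more mesenchyme markers, and cell 21 held 1. Tie1 without Tek occurred in 6 cells (7, 12, 19, 37, 61 and 73), with Tie1 up to 67.4 TPM in cell 61, and 4 of them held 0 mesenchyme markers. Neither receptor was detected in 7 cells (14, 23, 34, 39, 65, 72 and 75). Of these, 6 held 3 or more mesenchyme markers, and cell 39 held 1. They held between 0 (cell 65) and 15 (cell 34) pan-endothelial markers, so values below TPM 1 for both receptors were not limited to cells with few endothelial genes. Angpt2 was nevertheless high in 4 of the 7, at 61.7 TPM in cell 72, 57.2 in cell 34, 53.4 in cell 14 and 14.4 in cell 75. Angpt2 without Tek was seen in 8 cells in all.

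Levels were next compared by rank. Spearman's rho over cells is given as a description with no p, since cells of 1 sample share library preparation, and TPM values within a cell share a fixed total. Over 84 cells rho was 0.44 for Tek and Ptprb, 0.35 for Tie1 and Ptprb and 0.34 for Tek and Tie1. The other 12 pairs lay between -0.20 and 0.15, too weak in sparse data to describe as related. Within the 7 library index sets of 12 cells, Tek and Ptprb ran from 0.23 to 0.83, Tek and Tie1 from 0.08 to 0.64, and Tie1 and Ptprb from -0.22 to 0.79, the last being above 0 in 6 of 7 sets.

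The pairs differed in which cells carried the relation. In the 50 cells with fewer than 3 mesenchyme markers, rho was 0.52 for Tek and Ptprb, 0.09 for Tie1 and Ptprb and 0.02 for Tek and Tie1. In the other 34 cells the order turned around, with 0.17 for Tek and Ptprb, 0.57 for Tie1 and Ptprb and 0.59 for Tek and Tie1. Among the 29 of those 34 that also held 10 or more pan-endothelial markers, the values were -0.12, 0.41 and 0.45. In all 78 cells with 10 or more pan-endothelial markers they were 0.34, 0.22 and 0.21. Tek thus ran more with its phosphatase in the cells with fewer than 3 mesenchyme markers, of which 10 held 1 or 2, and more with Tie1 in the cells with 3 or more. The difference between the classes was not tested.

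**Figure D2:**
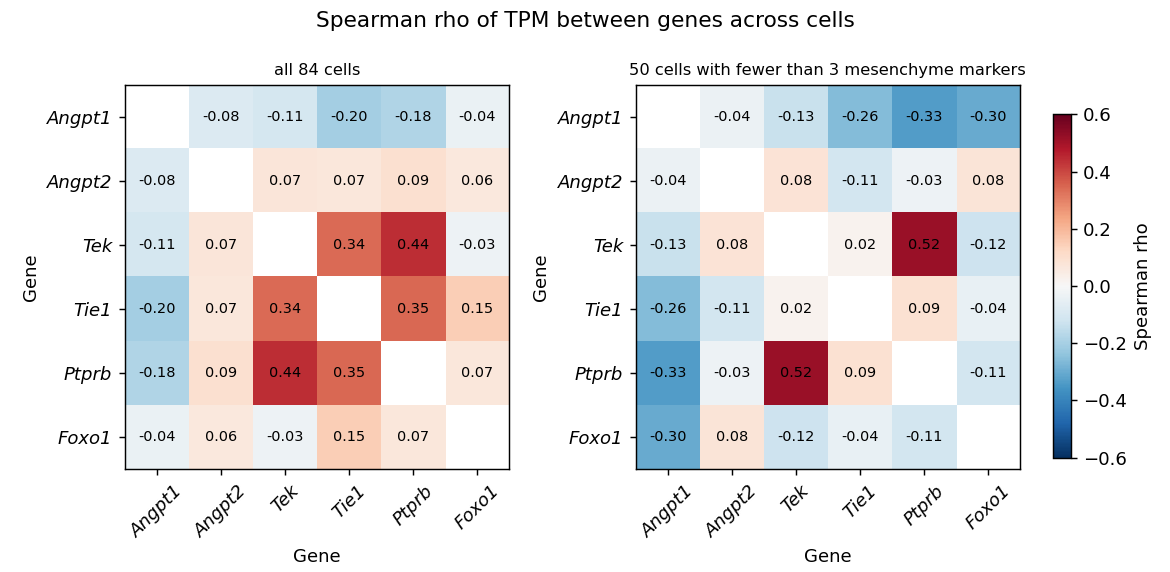
Spearman rho of TPM between each pair of genes, over all 84 cells on the left and over the 50 cells with fewer than 3 mesenchyme markers on the right. Colour and numbers give rho. Tek with Ptprb is 0.44 and 0.52, while Tek with Tie1 is 0.34 and 0.02.

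**Figure D3:**
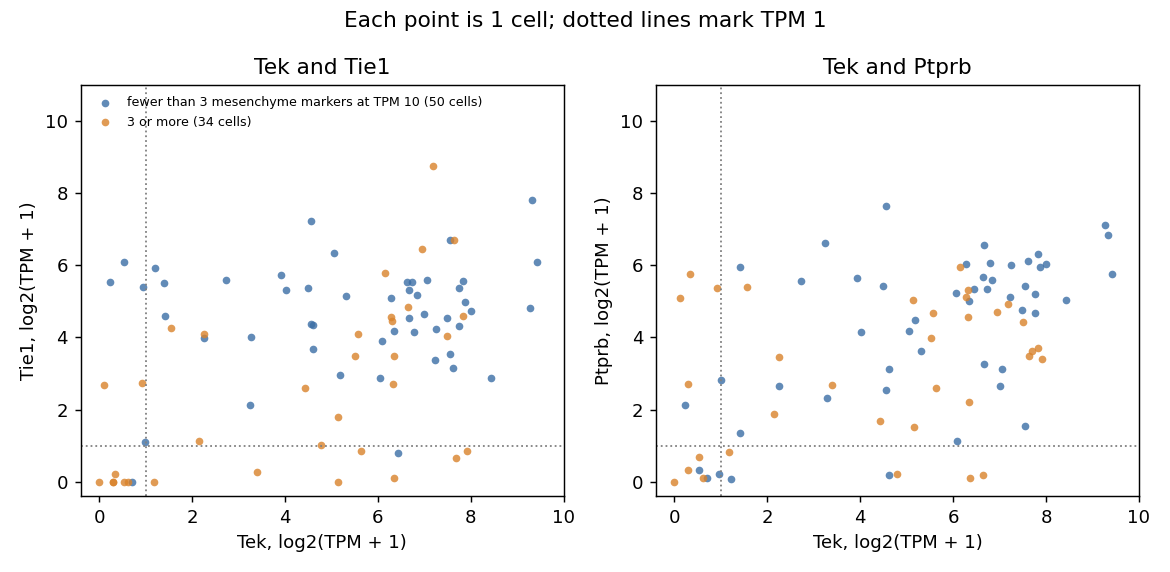
Level of Tie1 (left) and Ptprb (right) against Tek in each cell, all as log2(TPM + 1), coloured by the number of mesenchyme markers. Dotted lines mark TPM 1. Cells with Tek at TPM 1 or more and Tie1 below it lie in the lower right of the left panel, and 7 of those 8 hold 3 or more mesenchyme markers.

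Genes whose levels ran most like each member were ranked among 9683 genes detected in 20 or more cells. For Tek they were the VEGF receptor Flt1 (rho 0.69), the endothelial sialomucin Emcn (0.62), the adrenomedullin receptor subunit Calcrl (0.60), the coagulation inhibitor Tfpi (0.52) and the phosphatase subunit Ppp4r1 (0.52). In cells with fewer than 3 mesenchyme markers Flt1 stood at 0.78 and Emcn at 0.65. Ptprb was number 32 in the order of Tek and Tie1 number 146. A rho of 0.3 or more with Tek was reached by 12 of the 17 pan-endothelial genes, with a median of 0.37, beside 2.94% of all genes and a median of 0.03.

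For Tie1 the leading genes were the Src family kinase Lyn (0.55), the scavenger receptor Stab1 (0.50), the natriuretic peptide receptor Npr1 (0.48), the GTPase-activating protein Arap3 (0.46) and the VEGF receptor Kdr (0.45). Without cells holding 3 or more mesenchyme markers these fell to 0.40 for Lyn, 0.22 for Stab1, 0.16 for Npr1, 0.13 for Arap3 and 0.19 for Kdr. Ptprb was number 84 and Tek number 95. A rho of 0.3 or more was reached by 9 of the 17 pan-endothelial genes, beside 1.88% of all genes. For Ptprb the leading genes were Kdr (0.51), the septin Sept2 (0.50), the syntaxin Stx7 (0.50), the Calcrl partner Ramp2 (0.49) and Calcrl itself (0.49), with Tek at number 18 and Tie1 at 147. The 17 pan-endothelial genes gave 9 at 0.3 or more, beside 3.38% of all genes.

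Angpt2 and Foxo1 had other company. The genes nearest Angpt2 were the nicotinamide riboside kinase Nmrk1 (0.52), the PI3K subunit Pik3r5 (0.50), Tc2n (0.50), Agtrap (0.46) and the heat shock protein Hspa4l (0.44), and the members with a place in its order lay between 3475 and 4460. Of the 17 pan-endothelial genes, 0 reached 0.3 with Angpt2, with a median of 0.03, beside 2.19% of all genes and a median of 0.05. Foxo1 was nearest to Rassf2 (0.40), the sodium pump subunit Atp1b3 (0.40), Wdr43 (0.39), the growth factor Pdgfa (0.39) and the exchange factor Vav3 (0.39). Its count of pan-endothelial genes at 0.3 was also 0, beside 0.516% of all genes. For Angpt1, with 8 detected cells, Plscr1 (0.43), Dhps (0.43), Blvrb (0.41), Ppm1d (0.41) and Tmem161a (0.39) led an order in which 0.764% of genes reached 0.3. Such values over so few cells are listed only to complete the ranking.

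Detection of the receptors, Ptprb and Foxo1 was higher in cells with more pan-endothelial markers, none of which is a member. Tek was detected in 33.3% of the 6 cells with 0 to 7 markers, 73.3% of 15 cells with 10 to 13, 85.7% of 28 cells with 14 or 15 and 97.1% of 35 cells with 16 or 17, and its median went from 0.59 to 22.5, 39.5 and 101.1 TPM. Tie1 went from 16.7% to 73.3%, 85.7% and 94.3%, with medians from 0 to 10.2, 19.6 and 22.6 TPM. Ptprb medians were 0.17, 6.03, 13.4 and 31.3 TPM, and Foxo1 was detected in 33.3%, 60%, 89.3% and 100% of cells. Angpt2 did not follow. It was detected in 33.3%, 73.3%, 85.7% and then 54.3%, and its median in the 35 cells richest in markers was 1.41 TPM, against 10.9 TPM in the 28 cells with 14 or 15.

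**Figure D4:**
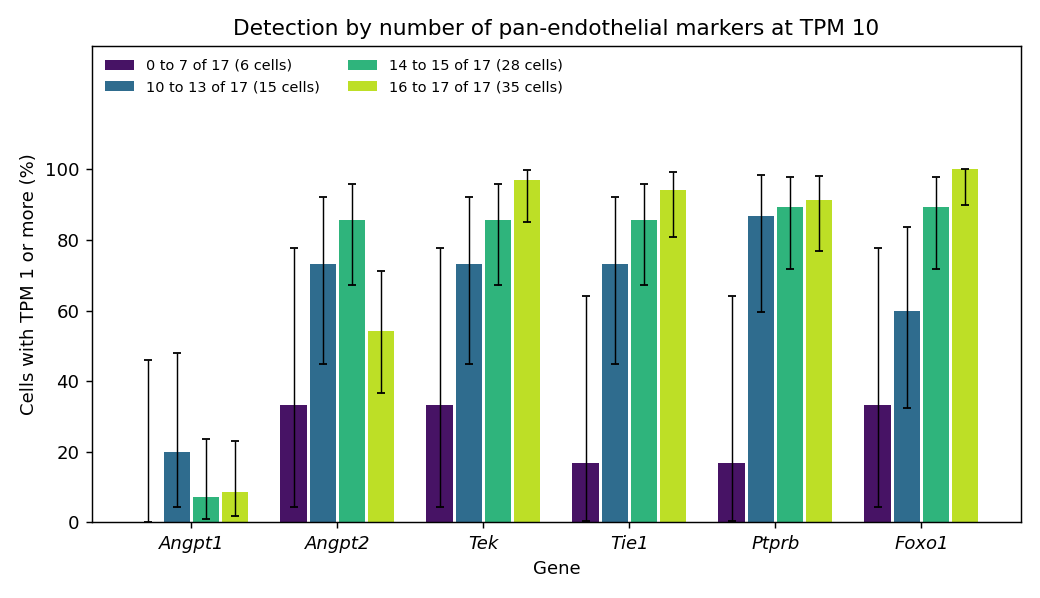
Share of cells with each gene at TPM 1 or more (vertical axis, percent) in 4 classes of cells by number of pan-endothelial markers. Error bars are exact 95% intervals for counting error. Tek reaches 97.1% in the class with 16 or 17 markers, where Angpt2 stands at 54.3%.

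Between the 78 cells with 10 or more of these markers and the other 6, the mean of log2(TPM + 1) was higher by 4.47 for Tek, 3.86 for Tie1, 3.52 for Ptprb, 1.83 for Foxo1 and 1.31 for Angpt2. These 5 were thus past a difference of 1, as were 36.7% of all genes detected in 20 or more cells, while 0 members and 7.64% of genes were lower by as much. The median of those genes was 0.60. The 78 cells also had more genes detected, with medians of 7049 and 5702. Summed mesenchyme markers had medians of 8.69 TPM in the 78 and 1055 TPM in the 6.

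Cells with 3 or more mesenchyme markers held less of the receptors, most of all Tie1. Tie1 was detected in 21 of these 34 cells (61.8%) with a median of 5.29 TPM, and in 48 of the other 50 (96.0%) with a median of 26.5 TPM. The difference in mean log2(TPM + 1), cells with minus cells without, was -2.03 for Tie1, lower than for all but 0.48% of genes. Ptprb stood at -1.17, with medians of 10.1 and 32.6 TPM, and Tek at -1.10, with medians of 39.6 and 78.4 TPM. These 3 members were lower by 1 or more, as were 8.06% of genes, and 0 members were higher by as much, beside 4.22% of genes. The median over genes was -0.09. Within index sets the Tie1 difference was below 0 in 7 of 7 sets, from -3.27 to -0.04, while those of Ptprb and Tek were below 0 in 6 and 5 sets.

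The same cells had a lower summed level of pan-endothelial markers, with medians of 3241 and 5508 TPM, and similar numbers of genes detected, 6862 and 7032. Restricted to cells with 10 or more pan-endothelial markers (29 against 49), the differences were -1.72 for Tie1, -0.83 for Ptprb and -0.60 for Tek. Tek therefore lost more of its difference than Tie1. Summed mesenchyme markers ran from 68.5 to 2848 TPM in the 34 cells and from 0.04 to 68.8 TPM in the 50, and 4 cells lay just under the cut with 2 markers and 6 just above it with 3. Summed mural markers were also higher in the 34 cells, with a median of 41.8 TPM against 1.865 TPM in the 50. They ran from 0.10 to 351 TPM in the 34 and from 0.04 to 787 TPM in the 50, the last in cell 41. Of the 9 mural genes, 7 were detected in at least 1 cell, and Cspg4 and Myh11 in 0 cells. Whether these cells are mixtures, 2 cells read as 1, or single cells with both sets of transcripts was not tested.

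Foxo1 behaved differently on its 2 measures. It was detected in 23 of the 34 cells (67.6%) and 48 of the 50 (96.0%), and its mean difference was -0.87, yet its median was 28.3 TPM in the 34 and 24.1 TPM in the 50. The 34 cells thus held more cells with Foxo1 below TPM 1 beside others at full level. Angpt2 had medians of 1.60 and 7.58 TPM and a difference of -0.58, and Angpt1 was detected in 6 and 2 cells with a difference of 0.41.

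Endothelial subtypes were compared through single markers. Prox1 at TPM 10 marked 36 cells. Prox1 alone does not define lymphatic cells: 24 cells held 3 or more of 4 lymphatic markers at TPM 10, and 72 held 3 or more of 4 venous markers. Angpt2, a ligand known to be needed for lymphatic vessels, was detected in 28 of those (77.8%) with a median of 9.87 TPM and in 28 of the other 48 (58.3%) with a median of 1.495 TPM. The mean log2(TPM + 1) was higher by 1.09 with Prox1, at the 95.8 percentile of genes, and the difference was above 0 in 6 of 7 index sets. Angpt2 was the 1 member higher by 1 or more and 0 were lower by as much, beside 5.74% of genes higher and 1.43% lower. Without cells holding 3 or more mesenchyme markers it was 1.29. Tie1 was also higher with Prox1, by 0.98, but by 0.22 without those cells. The mean of Tek showed no such rise, at -0.16 in all cells and -1.22 without the 34 cells with 3 or more mesenchyme markers. Over all cells its median was nevertheless higher with Prox1, at 67.9 TPM against 47.4 TPM, and it was detected in 86.1% and 83.3% of cells. Ptprb moved from 0.68 to -0.0047 when the same 34 cells were left out. Summed mesenchyme markers had medians of 4.82 TPM with Prox1 and 40.6 TPM without, and genes detected of 7026 and 6947.

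Cells with an arterial marker were those with Gja4, a gap junction gene, or Dll4, a Notch ligand, at TPM 10 (29 against 55 cells). The list of arterial markers holds 8 genes, and 72 of all 84 cells held 3 or more of 4 venous markers at TPM 10. The comparison is therefore not one of arterial against venous cells. Differences were 0.97 for Tie1, 0.76 for Ptprb, 0.71 for Tek, 0.27 for Foxo1, 0.25 for Angpt2 and -0.23 for Angpt1, beside a median of 0.17 over genes. No member passed a difference of 1, which 6.05% of genes did upward and 0.806% downward. Tie1 was detected in 25 of 29 and 44 of 55 cells, with medians of 27.1 and 15.96 TPM. Without those 34 cells the Tek difference was 0.28 and that of Tie1 0.86, and Foxo1 changed sign to -0.19. Esm1, a gene of endothelial tip cells, reached TPM 10 in 13 cells. Tip cells are a known source of Angpt2. Here Angpt2 was detected in 7 of the 13 and 49 of the other 71, with medians of 1.75 and 6.20 TPM. Its upper quartile went the other way, at 48.1 TPM in the 13 cells and 21.1 TPM in the 71. The mean difference of Angpt2 was 0.10, and -0.40 without the 34 cells. Esm1 alone does not define tip cells: the list of tip or angiogenic markers holds 7 genes, and 44 cells held 3 or more of them at TPM 10. Ptprb differed by -0.58 with Esm1, and Angpt1 was detected in 0 of the 13. No member passed a difference of 1 there either, beside 8.48% of genes upward and 3.99% downward.

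**Figure D5:**
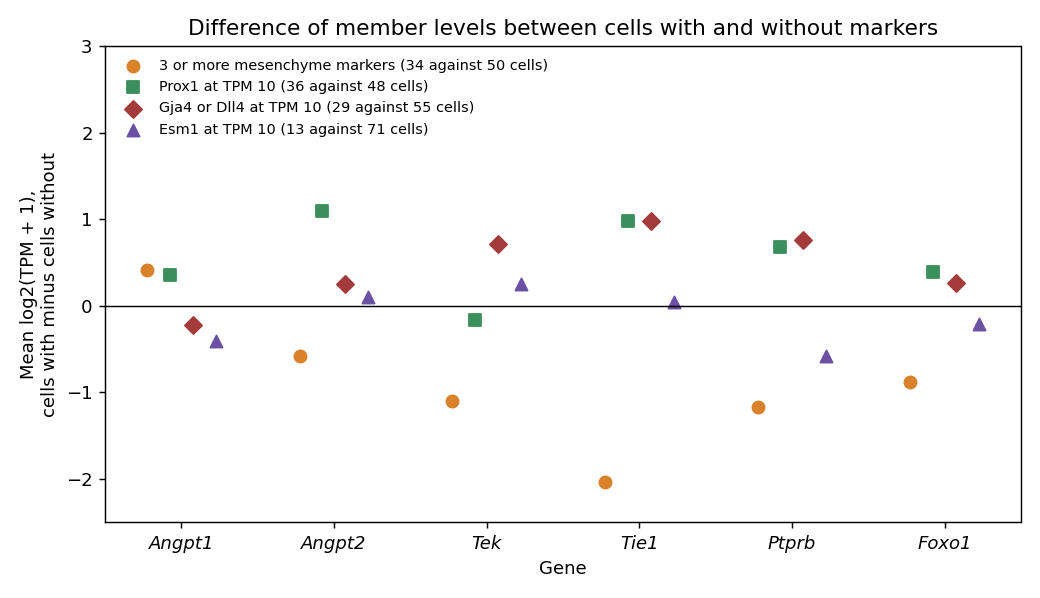
Difference in mean log2(TPM + 1) between cells with and without a marker class (vertical axis) for each gene, with 1 symbol per class and the numbers of cells in the legend. Tie1 is lowest with mesenchyme markers (-2.03), and Angpt2 is highest with Prox1 (1.09).

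The wider pathway was read from lists of known components. Counts of list genes in 42 or more cells stand beside 34.6% of all genes in the table, and no list was tested against that share. Of receptor partners and shedding enzymes, 6 of 7 genes were detected in 42 or more cells: the integrin subunit Itgb1 in 81, Ptprb in 71 and the membrane metalloproteinase Mmp14 in 70, and the fewest were for Itgb3 in 4. The highest Itgb3 value, 1427 TPM, came from cell 41 with the platelet transcripts. Of adaptors that dock on the active receptor, 5 of 9 genes were in 42 or more cells, led by Rasa1 (81 cells, median 52.9 TPM), Shc1 (75 cells, 51.4 TPM) and Nck1 (75 cells, 11.4 TPM). Grb7 was detected in 0 cells. Dok2, the docking protein that recruits Nck and Rasa1 to Tie2, was detected in 2 cells, neither above 1.99 TPM.

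The PI3K and AKT list had 7 of 10 genes in 42 or more cells, beside 34.6% of all genes. The kinase Akt1 was detected in 77 cells (median 52.9 TPM) and the catalytic subunit Pik3ca in 69 (11.2 TPM). Its rarest member was Pik3cb in 17 cells. FOXO target genes numbered 6 of 13 in 42 or more cells, which is not far from the 34.6% of all genes. The ubiquitin ligase Fbxo32 was detected in 73 cells, the cell cycle inhibitor Cdkn1b in 68, the thioredoxin inhibitor Txnip in 59 and the repressor Bcl6 in only 1. Levels of Foxo1 messenger RNA did not run with its target genes. Of 9 targets that could be ranked, 6 had a rho above 0 with Foxo1, the median was 0.02, beside 0.02 for all genes, and 0 reached 0.3. Foxo1 acts by its place in the cell, which messenger RNA does not show.

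Angiopoietin-like genes, relatives of the ligands that do not bind Tie2, had 1 of 6 in 42 or more cells, beside 34.6% of all genes. Angptl7 was detected in 81 cells at a median of 4.37 TPM and a highest value of 23.1 TPM, Angptl2 in 37 and Angptl1 in 22. Angptl7 lies within Mtor on the opposite strand, so its reads may not be told apart from those of Mtor.

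Libraries can be grouped technically by either of the paired indexes in their barcodes. Over the 7 sets of 12 cells that share a second index, Tek was detected in 9 to 12 cells per set, Tie1 in 7 to 12, Ptprb in 7 to 12, Foxo1 in 9 to 12, Angpt2 in 6 to 10 and Angpt1 in 0 to 3. Medians ranged between sets from 24.96 to 110 TPM for Tek, 5.88 to 27.99 for Tie1, 6.53 to 35.7 for Ptprb, 17.0 to 43.6 for Foxo1 and 1.02 to 9.67 for Angpt2. Over the 12 sets of 7 cells that share a first index the spread was wider, with medians from 1.25 to 187 TPM for Tek, 6.77 to 41.03 for Tie1, 3.98 to 41.9 for Ptprb, 0.18 to 56.7 for Foxo1 and 0.49 to 46.8 for Angpt2. The lowest set median of Tek thus lay below that of Tie1, and the order of the medians of Tek, Foxo1, Ptprb and Tie1 is within the spread between these sets.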

How the data were processed

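The authors deposited 1 table of TPM for 84 cells, each cell a sample. Cells were captured on a chip for 10 to 17 µm, full-length cDNA was amplified, and libraries were read single-end at 67 bp with 24 per lane, per the labels' protocols. Tools named in the submitters' processing notes are RSEM 1.2.3, Bowtie 0.12.9 and CASAVA 1.8.2, with the build mm10. For annotation and strand settings, the sources used here give nothing. TPM divides by transcript length and sums to a fixed total, so depth is unknown and a few very high genes lower all others.

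Scripts (Python 3.11.15, pandas 2.3.3, scipy 1.17.1) computed detection at TPM 1, markers at TPM 10, joint detection, Spearman's rho and differences of mean log2(TPM + 1), a scale with pseudocount 1 that understates differences of low genes. Routines were tested on simulated data. Correlations and differences were computed for the members, Angpt1 with its 8 detected cells included, and, as background, for genes detected in 20 or more cells. Named genes are the members, the 3 most and the least detected genes of each pathway list, and the 5 genes nearest each member by rank correlation; 2 list members that this rule takes are not reported here. Others (Dok2, Mcph1 and the platelet genes), and each cell picked out, were chosen once values were seen. Members and lists were chosen with earlier results of these data known. Alternatives to thresholds, cells and scaling were tried.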

Additional observations from a re-analysis of the deposited data

How the results depend on the processing

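Over 56 results, 185 alternative values were computed: 160 stayed within the band set for each (its counting interval, or 1 SD over index sets or cells), 25 moved and 0 reversed. The bands over index sets are wide. Counting any value above 0 as detection gave 98.8% of cells for Tek, 90.5% for Tie1, 28.6% for Angpt1, 100% for Angpt2, 98.8% for Ptprb and 92.9% for Foxo1. At TPM 10 detection was 70.2% for Tek, 65.5% for Tie1, 39.3% for Angpt2, 59.5% for Ptprb and 69.05% for Foxo1, and Angpt2 without Angpt1 was found in 39.3% of cells. The joint detection ratio at TPM 10 was 1.22 for Tek with Ptprb and 1.12 for Tek with Angpt2. Without cells holding 3 or more mesenchyme markers, detection was 96.0% for Tie1, 4.0% for Angpt1 and 96.0% for Foxo1, the medians of Tie1 and Ptprb were 26.5 and 32.6 TPM, and rho of Tek and Tie1 was 0.021. Without cell 41 as well, detection was 95.9% for Tie1, 2.04% for Angpt1 and 95.9% for Foxo1. In cells with the gene detected, the median was 17.3 TPM for Angpt1 and 15.99 TPM for Angpt2. The share of cells with Angpt2 covered the widest span, from 100% down to 39.3%. For the values that moved when cells were left out, the cause was not tested.

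Signs changed inside these bands for 10 values. They were Angpt1 with 3 mesenchyme markers at TPM 100 (-0.45) and with 14 or more pan-endothelial markers (-0.45), Angpt2 with Esm1 at TPM 1 (-0.07), and rho of Tek and Foxo1 as a Pearson correlation on log2(TPM + 1) (0.0085) and of Angpt2 and Foxo1 in cells with 10 or more pan-endothelial markers (-0.0065). Without cells holding 3 or more mesenchyme markers they were Ptprb (-0.0047) and Foxo1 (-0.09) with Prox1, Foxo1 with Gja4 or Dll4 (-0.19), and Tek (-0.29) and Angpt2 (-0.40) with Esm1. The following alternatives were chosen after seeing the data. For the marker comparisons, each cell was rescaled by median-of-ratios factors (0.78 to 1.60). Cells with 3 or more mesenchyme markers were left out of the Prox1, Gja4 or Dll4, and Esm1 comparisons. Cell 41 was left out of detection, and the mesenchyme comparison was restricted to cells with 10 or more pan-endothelial markers. No paired analysis was possible because the cells form 1 group. With 84 cells from 1 sample and no depth, differences between embryos and the reads behind a 0 cannot be judged.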
